A study of Drosophila melanogaster with 6 samples.

Results

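Glutathione transferase genes of the midgut were taken as the rows of the count table whose name begins with Gst followed by a capital letter. They numbered 21 of 15391 rows: 10 of the Delta class (GstD1 to GstD10), 10 of the Epsilon class (GstE1 to GstE10) and the single Sigma gene GstS1. No row carried an Omega, Theta or Zeta name under that rule. A further 14 rows, listed under older CG numbers, are named Gst by a current annotation. They hold 1 Delta, 4 Epsilon, 3 Omega, 4 Theta and 2 Zeta genes and are described separately. Of the 21, 19 had at least 10 counts in 3 or more libraries. GstE2 and GstD6 did not, and both are given by their counts alone. The count table names genes by an older annotation, so a class here is the letter in the gene's name.

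The tissue was the midgut of adult Drosophila melanogaster. In knockdown flies, RNA interference against Rab11, a small GTPase of recycling endosomes, was driven by Myo1A-Gal4, which is active in enterocytes, the absorptive cells of the gut. The WT control flies were described as wild type, with nothing said of whether they carried the driver. All flies were moved to 29 °C at 5 days after eclosion and held there for 5 days. Each group had 3 libraries. Both Illumina and Ion Torrent sequencing were used, and nothing states which library was made with which. The labels give the cell type as enterocyte, but the RNA was isolated from midguts, which also hold stem cells, enteroendocrine cells and muscle. It is not stated whether replicates came from different flies, and p-values here cover sample-to-sample spread that may be technical.

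Glutathione transferases join the tripeptide glutathione to reactive or toxic compounds, or use it to reduce peroxides. Conjugation makes a compound easier to export from the cell. The Delta and Epsilon classes are known mainly from arthropods, have expanded in insects and are best known for insecticide detoxification and the oxidative stress response. Sigma, Omega, Theta and Zeta classes are shared with vertebrates. In Drosophila, the transcription factor CncC, made from the cnc gene, induces GstD1 and other detoxification genes when its inhibitor Keap1 releases it. No protein or promoter sequence of these genes was used here.

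The libraries held 9818914 to 33082790 counts, and replicate 3 was the deepest of each group. Rab11 itself stood at 64.4, 78.2 and 78.7 CPM in knockdown replicates 1, 2 and 3, against 319, 269.6 and 219 CPM in WT replicates 1, 2 and 3, a change of -1.87 ± 0.23 on the log2 scale (SE, adjusted p = 0.00342 in edgeR). CPM are counts divided by the library total in units of 1e6, scaled by TMM, a method that sets most genes to no change on average. Among 8377 genes tested, 9.05% were called higher and 7.63% lower in knockdown guts (edgeR quasi-likelihood test, adjusted p under 0.05). The knockdown was above WT without overlap for 20.2% of all genes tested and below it for 17.7%. Markers of other cells moved with the groups. All 5 enteroendocrine markers were called higher, with a summed level of 407 to 538 CPM in knockdown guts and 127 to 155 CPM in WT guts. Of 4 stem cell and enteroblast markers 2, Dl and Sox21a, were called higher. The others, esg (log2 fold change 0.40) and klu (-0.44), had overlapping groups and were not called. The summed level of all 4 was 100.1 to 109 CPM in knockdown guts and 28.6 to 53.3 CPM in WT guts. Sox21a alone stood at 52.1, 52.9 and 58.0 CPM in knockdown guts and 3.05, 8.40 and 2.93 CPM in WT guts. Of 5 enterocyte markers none was called without the replicate block, and they did not move one way. Their summed level was 6769 to 21546 CPM in knockdown guts and 19787 to 43241 CPM in WT guts. The trypsin gene alphaTry made up most of that sum in all 6 libraries, at 9846, 19080.2 and 3948 CPM in knockdown guts and 36759.8, 40736 and 17285 CPM in WT guts. It was called lower with the replicate block, which fits the replicate number as a further term (adjusted p = 0.0268 in edgeR), and by DESeq2 (0.0349). The enterocyte gene mex1 stood at 227, 297 and 367 CPM in knockdown guts and 132, 107 and 199.6 CPM in WT guts, without overlap, and was called higher with the block (0.0168) and by DESeq2 (0.0150). The groups were also apart for nub, higher in knockdown guts at a log2 fold change of 0.39, and for Myo31DF, lower at -0.55, and neither was called by edgeR, with or without the block, or by DESeq2. Markers of Malpighian tubule, an organ rich in detoxification enzymes that is attached to the gut, summed to 238 to 490.5 CPM in knockdown guts and 171 to 717 CPM in WT guts, with none of 5 called. Fat body markers summed to 265 to 973 CPM in knockdown guts and 68.5 to 374 CPM in WT guts. None of 3 tested was called, and their median log2 fold change was 1.53. The fat body storage protein gene Lsp2 went the other way at counts near 0, with 0, 0 and 1 in knockdown guts and 3, 3 and 3 in WT guts. Haemocyte markers were near 0, at 1.63 to 2.47 CPM in knockdown guts and 0.723 to 1.52 CPM in WT guts. The part of these cells in the results that follow was not tested. In such bulk samples, fewer cells of a type and less RNA per cell cannot be told apart.

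The Delta genes GstD2, GstD9 and GstD3 rose in knockdown guts, and the Sigma gene GstS1 fell. GstD2 was fitted at 10.8 times the WT level, GstD3 at 3.32 times and GstD9 at 2.34 times, while GstS1 stood 2.42 times lower. None of the Epsilon genes GstE1 to GstE10 was called in either direction. Of 18 members tested, 3 were thus called higher (9.05% over all genes) and 1 lower (7.63% over all genes), or 4 in either direction (16.7% over all genes). By class, 7 of 9 Delta genes had a log2 fold change above 0, as did 51.9% of all genes tested, with a median of 0.87. Of the 8 Epsilon genes tested among GstE1 to GstE10, 7 were below 0, as were 48.1% of all genes, with a median of -0.49. The median of all genes was 0.04. With library sizes alone, which moves the median of all genes to 0.47, the medians were 1.22 for Delta and -0.10 for Epsilon genes, and GstD7, GstD10 and GstE3 changed sign. Knockdown libraries were all above WT libraries for 5 Delta genes (20.2% over all genes tested) and all below them for GstE8 and GstS1 (17.7% over all genes tested), so that the groups were apart for 7 of 18 members (37.9% over all genes tested). The difference between the classes was not tested. In the remainder of the text a change is a log2 fold change of knockdown over WT with its standard error or 95% interval, and an adjusted p is Benjamini-Hochberg adjusted over all genes tested in edgeR's quasi-likelihood test.

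**Figure D1:**
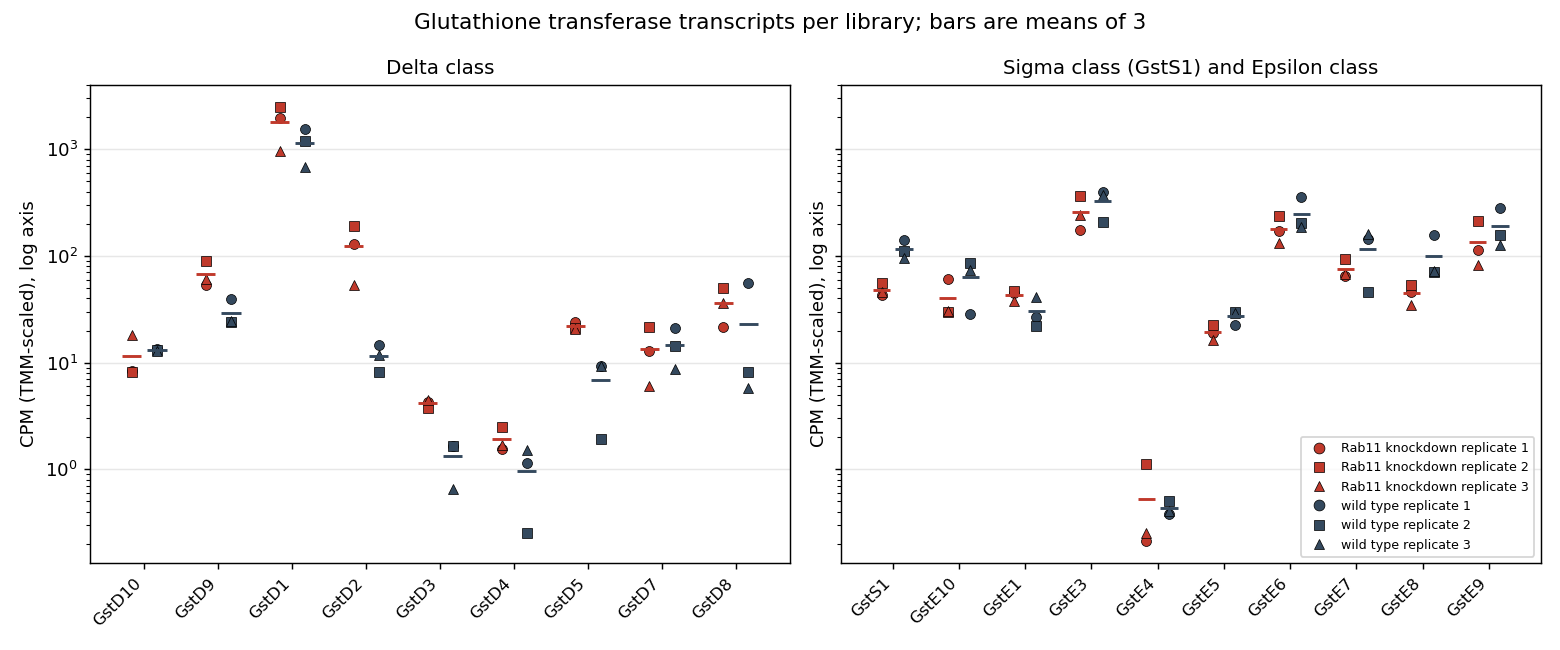
Level of the 19 members with at least 10 counts in 3 libraries, in CPM on a log axis, with the Delta genes on the left and GstS1 and the Epsilon genes on the right. Each point is a library, with knockdown libraries in red left of WT libraries in dark blue, and bars are means of 3. GstD2 and GstS1 show separated groups, while the knockdown and WT points of GstD1 and of most Epsilon genes overlap.

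GstD2 had the largest change of the 18. It stood at 129, 191 and 53.5 CPM in knockdown replicates 1, 2 and 3, against 14.6, 8.15 and 11.7 CPM in WT replicates 1, 2 and 3. The lowest knockdown library was above the highest WT library, and knockdown replicate 3 was the lowest of its group. Means were 124 ± 69.0 CPM in knockdown guts and 11.5 ± 3.23 CPM in WT guts (SD, n = 3 each). The change was 3.43 ± 0.49 (SE, adjusted p = 0.00539 in edgeR). It stayed called with each single library left out, at changes of 2.99 to 3.79. Between libraries of the same replicate number the knockdown was 8.81, 23.5 and 4.57 times WT. In counts of reads the libraries held 1819, 1691 and 2553 in knockdown guts and 115, 64 and 372 in WT guts. Per kilobase of exonic length GstD2 was the 5th most abundant of the 21 in knockdown guts and the 14th in WT guts.

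GstD9, a neighbour of GstD1 on the opposite side from GstD2, stood at 53.7, 89.7 and 61.3 CPM in knockdown guts, against 39.1, 24.1 and 24.4 CPM in WT guts, and the groups did not overlap. Its change was 1.23 ± 0.29 (SE, adjusted p = 0.0299 in edgeR). The call was lost without knockdown replicate 1 (0.0622), knockdown replicate 2 (0.0864), WT replicate 2 (0.0995) or WT replicate 3 (0.0747).

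GstD3 encodes a protein that is shorter at its amino terminus than other Delta transferases, and its transcript was scarce. It had 61, 33 and 214 counts in knockdown guts, against 13, 13 and 21 in WT guts, which scaled to 4.31, 3.73 and 4.48 CPM and 1.65, 1.65 and 0.661 CPM. The knockdown libraries lay close together and above all WT libraries. The change was 1.73 ± 0.45 (SE, adjusted p = 0.0394 in edgeR). The call did not survive the loss of any single library (adjusted p 0.0762 to 0.144), nor a test with no filter on low counts (0.0569).

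GstD5 was not called, at 24.0, 21.1 and 20.8 CPM in knockdown guts and 9.40, 1.91 and 9.25 CPM in WT guts. The groups did not overlap, and WT replicate 2 was far below the other WT libraries. Its change was 1.66, with a 95% interval of 0.47 to 2.86 (adjusted p = 0.0662 in edgeR). With the replicate number as a block it was called (0.0226), as it was with DESeq2 (0.0118).

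GstD1, a transferase that acts on DDT and whose promoter drives a common reporter of oxidative stress in flies, was the most abundant of the 21 per kilobase in both groups. It stood at 1951, 2505 and 967 CPM in knockdown replicates 1, 2 and 3, against 1552, 1188 and 680.2 CPM in WT replicates 1, 2 and 3. The groups overlapped, and the replicate 3 library was the lowest in each group. At replicate numbers 1, 2 and 3 the knockdown was 1.26, 2.11 and 1.42 times WT. The change was 0.67, with an interval of -0.44 to 1.77 (adjusted p = 0.382 in edgeR, 0.118 with the replicate block). The interval thus holds both no change and a change of the size seen in GstD9. Per kilobase, GstD2 reached 0.0757, 0.0877 and 0.0635 of the level of GstD1 in the 3 knockdown libraries, against 0.0108, 0.00788 and 0.0198 in the WT libraries, without overlap.

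GstD8 turned on a single library. Its level was 21.4, 50.2 and 36.4 CPM in knockdown guts and 55.6, 8.15 and 5.79 CPM in WT guts, where replicate 1 held the highest value of all 6. The change was 0.65, with an interval of -1.28 to 2.57 (adjusted p = 0.647 in edgeR). Without WT replicate 1 it was 2.38, and the gene was called (0.0291).

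The other Delta genes were not called. GstD4 was scarce, at 1.56, 2.49 and 1.68 CPM in knockdown guts and 1.14, 0.255 and 1.51 CPM in WT guts, with no overlap and a change of 0.87 (-0.51 to 2.26). GstD10 was even across WT libraries, at 13.5, 13.2 and 12.9 CPM, while the knockdown libraries had 8.41, 8.25 and 18.2 CPM and lay on both sides of them. GstD7 overlapped, at 12.7, 21.6 and 6.07 CPM in knockdown guts and 21.0, 14.4 and 8.68 CPM in WT guts. The changes of GstD10 and GstD7 were -0.17 (-0.98 to 0.64) and -0.13 (-1.30 to 1.05), and both were above 0 with library sizes alone. GstD6 had 9, 3 and 34 counts in knockdown guts and 4, 0 and 22 in WT guts, too few to test.

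The Epsilon genes GstE1 to GstE10 included no call in edgeR without the replicate block. With the block 1 was called lower, GstE8 (14.0% over all genes). DESeq2 also called only GstE8, and its share over all genes was not taken. Of these genes 6 had overlapping groups and a change between -0.65 and -0.32, GstE1 had overlapping groups and a change of 0.51, and GstE8 had groups apart. The most abundant of them per kilobase, in both groups, was GstE3. It stood at 175, 367 and 240.0 CPM in knockdown guts and 398, 206 and 375 CPM in WT guts, with a change of -0.32 (-1.19 to 0.54). GstE6 had 169.6, 239 and 132 CPM in knockdown guts and 355, 202 and 187 CPM in WT guts, with a change of -0.46 (-1.25 to 0.34). GstE9 had 113, 211 and 82.4 CPM in knockdown guts and 282, 156 and 128 CPM in WT guts, with a change of -0.48 (-1.49 to 0.53). For GstE3, GstE6 and GstE9 alike, knockdown replicate 2 was the highest library of its group and WT replicate 1 the highest of the other. Comparing equal replicate numbers, the knockdown was above WT at number 2 and below it at numbers 1 and 3 for these genes and for GstE7.

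GstE8 came closest to a call. Its level was 46.4, 53.5 and 34.3 CPM in knockdown guts and 159, 70.1 and 72.1 CPM in WT guts. All knockdown libraries were below all WT libraries, of which replicate 1 was the highest. The change was -1.17 (-2.02 to -0.31, adjusted p = 0.0693 in edgeR), and it was called with the replicate block (0.0291) and with DESeq2 (0.0226). GstE5 stood at 18.9, 22.6 and 16.3 CPM in knockdown guts and 22.6, 29.7 and 29.0 CPM in WT guts, where its lowest library equalled the highest knockdown library to the digits given. Its change was -0.50 ± 0.21 (SE, adjusted p = 0.155 in edgeR). GstE7 had 65.5, 93.7 and 68.4 CPM in knockdown guts and 143, 46.0 and 159.6 CPM in WT guts, and its change was -0.62 (-1.64 to 0.41).

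GstE1, whose enzyme conjugates the lipid peroxidation product 4-hydroxynonenal, was the only Epsilon gene tested under this name rule with a change above 0. It had 44.8, 46.8 and 37.5 CPM in knockdown guts and 26.9, 22.2 and 41.4 CPM in WT guts. The change was 0.51 (-0.11 to 1.12, adjusted p = 0.231 in edgeR). It was called without both replicate 3 libraries, at 0.88 (0.0189). GstE10 overlaps GstE1 on the opposite strand in a current annotation, and the strand setting of the counting is not given, so that reads of the overlap cannot be assigned. It had 61.3, 29.6 and 30.3 CPM in knockdown guts and 28.8, 86.3 and 74.3 CPM in WT guts, with a change of -0.65 (-1.71 to 0.42). GstE9 likewise overlaps imd. GstE4 had 3, 10 and 12 counts in knockdown guts and 3, 4 and 13 in WT guts, and GstE2 had 9, 3 and 36 counts in knockdown guts and 3, 1 and 21 in WT guts. Neither passed the filter of the test.

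GstS1, the Sigma transferase, is abundant in flight muscle and acts on lipid peroxidation products. It stood at 42.8, 55.2 and 45.8 CPM in knockdown replicates 1, 2 and 3, against 139.7, 112 and 96.2 CPM in WT replicates 1, 2 and 3. The highest knockdown library was well below the lowest WT library. Means were 47.9 ± 6.47 CPM in knockdown guts and 116 ± 22.1 CPM in WT guts (SD, n = 3 each). The change was -1.27 ± 0.22 (SE, adjusted p = 0.00984 in edgeR). The call was lost without knockdown replicate 1 (0.0621) and with library sizes alone, where the change was -0.83 (0.0520) and the median of all genes was 0.47. Visceral muscle markers, none of 5 called, summed to 416 to 584 CPM in knockdown guts and 419.6 to 1011 CPM in WT guts, and their part in the fall of GstS1 was not tested.

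Most of these genes sit in tandem arrays, the Delta genes on arm 3R and GstE1 to GstE10 on arm 2R in the current annotation of another build (BDGP6). The order along 3R is GstD10, GstD9 and GstD1 on the minus strand, then GstD2 to GstD8 on the plus strand. The 3 genes that rose lie on both sides of GstD1, which was not called: GstD9 on one side, GstD2 and then GstD3 on the other. From GstD2 along the array the changes were 3.43, 1.73, 0.87 and 1.66, then -0.13 and 0.65 after the scarce GstD6. In the array of GstE1 to GstE10 the changes ran between -1.17 and 0.51. Members of an array are close copies, so reads that match several of them may have been dropped or shared by the authors' counting, and the values of scarce members beside abundant ones are uncertain.

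**Figure D2:**
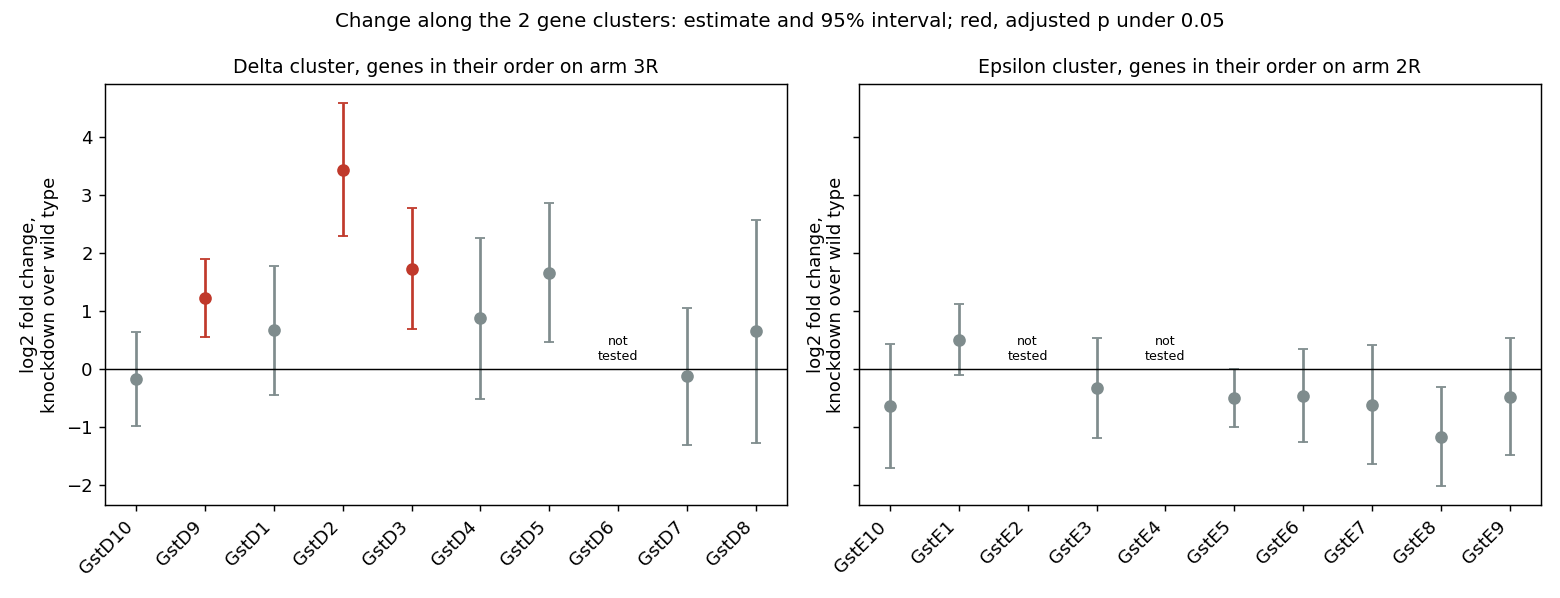
Log2 fold change of knockdown over WT with its 95% interval for the Delta genes (left) and the Epsilon genes (right), each in gene order along its chromosome arm. Red marks an adjusted p under 0.05, grey marks genes not called, and genes too scarce for the test are written as not tested. The Delta changes reach 3.43 at GstD2, while the changes of GstE1 to GstE10 lie between -1.17 and 0.51.

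Summed per kilobase of exonic length, which allows levels of different genes to be added, the Delta share of the transferase transcripts was larger in every knockdown library than in any WT library. Delta genes made up 75.0, 71.6 and 62.8% of the summed level of the 21 rows in knockdown replicates 1, 2 and 3, against 52.6, 58.7 and 39.6% in WT replicates 1, 2 and 3. Means were 69.8 ± 6.32% in knockdown guts and 50.3 ± 9.77% in WT guts (SD, n = 3 each). Epsilon genes made up 24.4, 27.9 and 36.3% in knockdown guts and 45.8, 39.4 and 58.6% in WT guts, again without overlap. GstS1 made up 0.533, 0.499 and 0.898% in knockdown guts and 1.58, 1.92 and 1.85% in WT guts. A share does not depend on the scaling between libraries, but the shares add up to a fixed total, so that those of the classes are not separate results. They are given with no test. Over all 35 genes the Omega share was 10.03, 9.11 and 13.22% in knockdown guts and 4.29, 6.85 and 11.3% in WT guts, and these ranges overlapped.

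The summed level of the 21 rows itself overlapped between groups, at 3529, 4861 and 2239.7 CPM per kilobase in knockdown guts and 3875, 2555 and 2280.2 in WT guts. GstD1 alone made up 65.6, 61.1 and 51.2% of it in knockdown guts and 47.5, 55.1 and 35.4% in WT guts. GstD2 made up 4.96, 5.36 and 3.25% in knockdown guts and 0.513, 0.434 and 0.699% in WT guts. Delta genes other than GstD1 summed to 334, 509 and 259 CPM per kilobase in knockdown guts, against 197, 90.8 and 95.2 in WT guts, without overlap. The ratio of the Delta to the Epsilon sum was 3.07, 2.57 and 1.73 in knockdown guts and 1.15, 1.49 and 0.675 in WT guts, and was lowest in the replicate 3 library of each group.

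**Figure D3:**
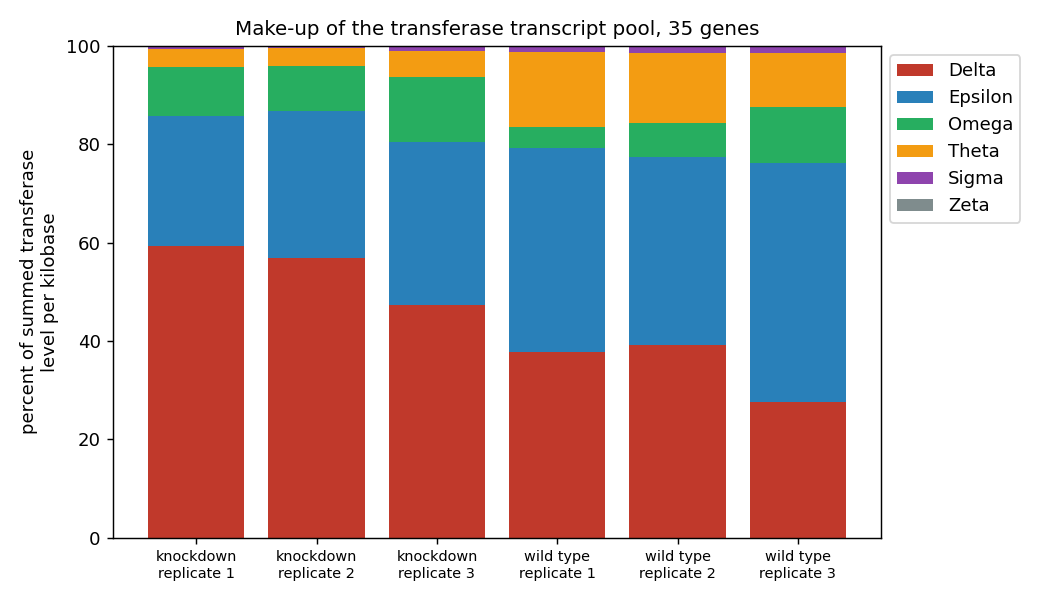
Share of each class, in percent of the summed level per kilobase of 35 transferase genes (the 21 rows by name and the 14 that a current annotation adds), in each library, knockdown at left and wild type at right. Delta genes (red) took 59.3, 57.0 and 47.3% in knockdown libraries and 37.8, 39.2 and 27.7% in the WT libraries. Theta genes (orange) took 3.74, 3.58 and 5.32% in knockdown libraries and 15.3, 14.3 and 10.9% in the WT libraries.

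The 14 genes under CG numbers are given here by their current symbols. Of these 12 had at least 10 counts in 3 libraries, and 12 were tested. GstE11, GstT1 and GstO1 rose and GstT4 fell, which is 3 higher (9.05% over all genes) and 1 lower (7.63% over all genes) of 12. Over all 30 transferases tested 6 were called higher (9.05% over all genes) and 2 lower (7.63% over all genes). GstT4 (CG1681), a Theta gene, had the largest fall of the 30. It stood at 100.2, 142 and 98.8 CPM in knockdown replicates 1, 2 and 3, against 895, 547 and 347 CPM in WT replicates 1, 2 and 3. Its highest knockdown library was less abundant than its lowest WT library. Means were 114 ± 24.5 CPM in knockdown guts and 596 ± 277 CPM in WT guts (SD, n = 3 each). The change was -2.39 ± 0.39 (SE, adjusted p = 0.00900 in edgeR), and the call was lost without knockdown replicate 1 (0.0566). Per kilobase it ranked 10th of 35 in knockdown guts and 2nd in WT guts.

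GstE11 (CG5224) rose to 20.9, 40.4 and 27.1 CPM in knockdown guts, against 5.33, 7.38 and 7.17 CPM in WT guts, with no overlap. Its change was 2.14 ± 0.30 (SE, adjusted p = 0.00494 in edgeR), and it stayed called with each single library left out. In gene order it is the next transferase after GstE9 on arm 2R. GstE12 (CG16936) had 391, 567 and 187 CPM in knockdown guts and 613, 607 and 326 CPM in WT guts. Its change of -0.43 (-1.49 to 0.62) was not called. GstE13 (CG11784) stood at 0.15 (-0.66 to 0.96). In the current annotation GstE12 overlaps CG3894 and GstE13 overlaps CG18659, so the source of some of their reads may be uncertain. GstE14 (CG4688), also named noppera-bo and needed for ecdysteroid synthesis in the prothoracic gland, had 2 counts in all 6 libraries.

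GstT1 (CG30000) rose to 45.7, 57.3 and 42.6 CPM in knockdown guts, against 27.3, 28.6 and 24.3 CPM in WT guts, with little spread in either group. Its change was 0.86 ± 0.19 (SE, adjusted p = 0.0249 in edgeR), a call that held without knockdown replicate 3 and was lost without any of the other 5 libraries (0.0677 to 0.0915). GstT2 (CG30005), the next transferase along arm 2R, had overlapping groups, with a change of 0.14 (-0.73 to 1.01). It overlaps the gene CG12926 in the current annotation. GstT3 (CG1702) stood at 41.0, 47.5 and 27.8 CPM in knockdown guts and 73.7, 84.8 and 43.5 CPM in WT guts. Its change was -0.80 (adjusted p = 0.124 in edgeR, 0.0114 with the replicate block). The 4 Theta genes thus included a rise and a fall.

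Omega transferases act as thiol transferases and reduce dehydroascorbate. GstO1 (CG6662) was scarce and rose to 5.16, 5.77 and 6.01 CPM in knockdown guts, against 1.52, 1.65 and 2.42 CPM in WT guts. The groups were apart, with a change of 1.56 ± 0.32 (SE, adjusted p = 0.0194 in edgeR). The call was lost without any single library other than WT replicate 3 (adjusted p 0.0506 to 0.0758). GstO3 (CG6776) was even in knockdown guts, at 287, 336 and 282 CPM, against 85.9, 128 and 257 CPM in WT guts, where replicate 3 came near the knockdown. Its change was 0.94 (0.01 to 1.87, adjusted p = 0.152 in edgeR), and it was called without WT replicate 3 (0.0234). GstO2 (CG6673), which overlaps the Omega gene se in the current annotation, had a change of 0.13 (-0.76 to 1.02). The Zeta genes GstZ1 (CG9362) and GstZ2 (CG9363), whose class isomerises maleylacetoacetate in tyrosine breakdown, stood at 0.32 (-0.56 to 1.19) and 0.70 (-0.62 to 2.02). GstD11 (CG17639) had 9, 1 and 22 counts in knockdown guts and 1, 0 and 19 in WT guts and was not tested.

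**Figure D4:**
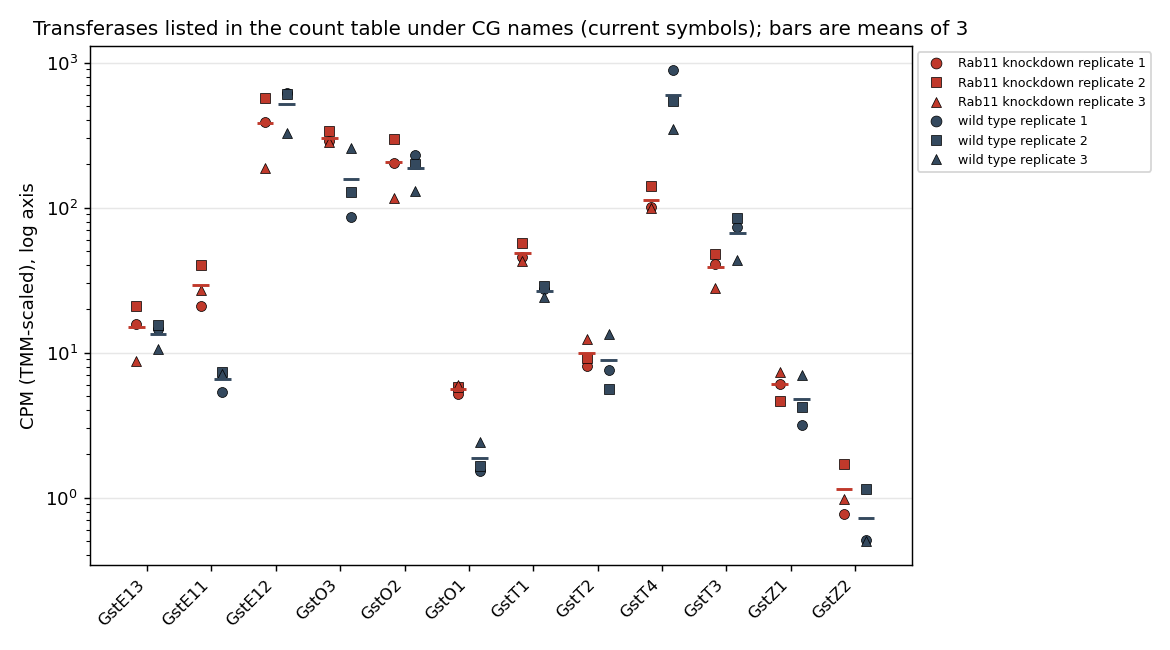
Level of the 12 transferase genes that the count table lists under CG numbers and that had at least 10 counts in 3 libraries, in CPM on a log axis, labelled by current symbol and ordered by class. Points are libraries, with the knockdown in red left of WT in dark blue, and bars are means of 3. GstE11, GstO1, GstO3, GstT1 and GstT4 show separated groups, as did 37.9% of all genes tested.

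Genes around the transferases were taken from a list of 32 for glutathione use, the CncC and Keap1 pathway and other detoxification. Of 28 tested, 1 was called higher (9.05% over all genes) and 7 lower (7.63% over all genes), or 2 and 10 with the replicate block (15.2% and 14.0% over all genes). Their median change was -0.61. Among the regulators, cnc was not called, at 293, 245 and 253 CPM in knockdown guts and 381, 413 and 347 CPM in WT guts, with a change of -0.53 (adjusted p = 0.138 in edgeR). The groups of cnc did not overlap, and DESeq2 called it lower (0.0423). Its inhibitor Keap1 fell, to 15.3, 8.48 and 18.4 CPM in knockdown guts, against 29.8, 53.6 and 54.6 CPM in WT guts. The change was -1.70 ± 0.36 (SE, adjusted p = 0.0202 in edgeR), lost without knockdown replicate 1 (0.0792), knockdown replicate 2 (0.0529) or WT replicate 2 (0.0627). The partner of CncC, maf-S, had a change of 0.12 (-0.33 to 0.58).

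In glutathione synthesis, Gclc fell. It encodes the catalytic subunit of glutamate-cysteine ligase, the rate-limiting enzyme, and stood at 159, 151 and 168 CPM in knockdown guts, against 699.5, 512 and 496 CPM in WT guts. The groups were far apart, with a change of -1.83 ± 0.25 (SE, adjusted p = 0.00458 in edgeR), and the call held with each single library left out. Its modifier subunit Gclm, named after its values were seen, had 166, 219 and 108 CPM in knockdown guts and 387, 375 and 289 CPM in WT guts. Its change of -1.09 missed the threshold (adjusted p = 0.0502 in edgeR) and was called with the replicate block (0.0119) and by DESeq2 (0.00862). The P450 genes Cyp6g1 and Cyp6a2, known from insecticide resistance, fell by 2.70 and 3.28 on the log2 scale (adjusted p = 0.00697 and 0.0222 in edgeR). Cyp6g1 stayed called with each single library left out, and Cyp6a2 lost its call without knockdown replicate 1 (0.0759) or knockdown replicate 2 (0.0718).

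The peroxide enzyme catalase, Cat, fell to 541, 484 and 436 CPM in knockdown guts, against 1233, 1198 and 762 CPM in WT guts, at a change of -1.13 (adjusted p = 0.0431 in edgeR). Only without WT replicate 3 did the call hold, and without another library it was lost (adjusted p 0.0893 to 0.142). Of 11 tested genes for peroxide and superoxide enzymes, Cat was the only 1 called, against 7.63% called lower over all genes. The nuclear receptor Hr96, a regulator of xenobiotic responses, rose by 0.83 on the log2 scale (adjusted p = 0.0415 in edgeR), a call that held without WT replicate 3 and was lost without any other single library (up to 0.134). The transcription factor foxo and the ecdysone receptor EcR fell by 1.42 and 0.96 (adjusted p = 0.0175 and 0.0325 in edgeR). EcR lost its call whichever library was left out (0.0510 to 0.0953) and foxo without knockdown replicate 1 (0.0830), knockdown replicate 2 (0.0535) or WT replicate 1 (0.0537). Of 2 other genes tested with a transferase fold or function but no Gst name, Mgstl and gfzf, neither was called by edgeR, and Mgstl was called lower with the replicate block (0.0298). The block also added calls for ref(2)P, which encodes an autophagy receptor, higher at a log2 fold change of 0.97 (adjusted p = 0.0508 in edgeR, 0.0224 with the block), and for Ugt86Dd, a UDP-glycosyltransferase, lower at -2.31 (0.0807 in edgeR, 0.00517 with the block). DESeq2 called ref(2)P (0.000337) and Ugt86Dd (0.00468) and did not call Mgstl (0.0730). All of ref(2)P, Ugt86Dd and Mgstl were named after their values were seen.

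The authors' deposited table of DESeq2 results, limited to adjusted p under 0.1, holds 6 of the 21 rows. In the authors' deposited table the log2 fold changes are 3.10 for GstD2, 1.57 for GstD3, 1.47 for GstD5, 1.15 for GstD9, -1.10 for GstE8 and -1.25 for GstS1. Its adjusted p for these run up to 0.0216 at GstE8. These are the members called by edgeR and also GstD5 and GstE8, which edgeR called with the replicate block. The authors' deposited table does not name the direction of its fold changes, and its signs equalled those of knockdown over WT for all 2447 rows that could be matched by name. The authors' deposited table also holds 6 of the genes listed under CG numbers, at 2.02 for GstE11, 1.43 for GstO1, 0.86 for GstO3, 0.83 for GstT1, -0.76 for GstT3 and -2.25 for GstT4.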

How the data were processed

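RNA from midguts was sequenced in 3 Rab11 knockdown and 3 WT libraries, grouped and numbered by their titles. The authors deposited a table of read counts per gene. Tools listed in the submitters' processing notes are STAR 2.4.2a, HTSeq 0.6.1 and DESeq2, with build BDGP5. The counting mode and strand were not stated in the labels. The authors also deposited a comparison table with, per the file headers, scores (mean normalized count and Wald statistic), log2 fold changes with standard errors, and p-values with adjusted p-values. All of its adjusted p-values are under 0.1.

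From the counts, genes were kept by filterByExpr (minimum count 10), scaled by TMM and tested two-sided with edgeR's quasi-likelihood test (edgeR 4.0.16, R 4.3.3), with group as the sole term and Benjamini-Hochberg adjustment over 8377 genes at 0.05. The fit was also run on counts simulated with known changes. These were drawn independently for each library, so effects shared between libraries, such as a replicate effect, were not covered. Replicates differed beyond sampling noise (chi-square per gene 69.8 to 438), so none was merged. Exonic lengths came from a BDGP6 annotation and were found for all 21 members, and current names for 15156 of 15391 rows. No coordinates are given, since the builds differ.

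Replicate numbers are shared between groups. Deviations from the group means of same-numbered libraries correlated at 0.14, 0.21 and 0.71, all above 0.1. Same-numbered libraries were treated as pairs only in the alternative fit with the replicate block, and not in the main fit. Knockdown replicate 2 correlated more with WT replicate 1 (0.51), and knockdown replicate 1 with WT replicate 2 (0.34), than with their own numbers, so only number 3 stands out as a pair. The pairing comes from the data alone, since the labels do not state it. The fit without the block is the main one, and blocked values stand beside genes whose call they change. Alternatives were other scalings, other filters, DESeq2 1.42.0, the replicate block, and leaving out libraries.

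All 21 members are accounted for. Values per library are given for members past the threshold, for the highest per kilobase in each class and for the largest changes. Related genes are those past the threshold, up to 8, with cnc, Keap1 and maf-S. Gclm, Mgstl, ref(2)P, Ugt86Dd, and the values of other members, were added after values were seen. The members and lists were chosen with earlier results of these data known, and the set of genes under CG numbers after the count table was seen. Depth of 9818914 to 33082790 counts leaves genes such as GstD6 with too few counts to compare.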

Additional observations from a re-analysis of the deposited data

How the results depend on the processing

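Over all genes, 1397 were called, 2451 with the replicate block, and 460 to 1138 with 1 library left out. Counts of members called higher stayed at 2 to 4 under all other settings, and were 1 to 3 with 1 library left out. With the replicate block, 4 of 18 were called higher (15.2% over all genes) and 2 lower (14.0% over all genes). Counts called lower were 0 with library sizes alone, 2 with DESeq2 and 0 to 1 with 1 library left out. The share of all genes called in each direction was taken only for the main fit and the block. With the genes under CG numbers, 6 of 30 were called higher (9.05% over all genes) and 2 lower (7.63% over all genes). GstD5 and GstE8 are the calls that the replicate block and DESeq2 added among the members, and no member lost its call under either. Of the genes under CG numbers, the block added GstT3. The Delta median was 1.22 with library sizes alone, 1.23 with the replicate block and 0.68 to 1.49 with 1 library left out. The Epsilon median was -0.10 with library sizes alone and -0.68 to -0.29 with 1 library left out. With library sizes alone the sign turned for GstE3 (0.039), GstD10 (0.36) and GstD7 (0.24), and the share of all calls that were higher was 82.8%, against 54.3% with TMM. With 1 library left out the sign turned within -0.67 to 0.025 for GstD10, -0.64 to 0.22 for GstD7, -0.14 to 0.42 for GstE13, -0.10 to 0.54 for GstT2 and -0.22 to 0.40 for GstO2. None of these genes was called. Of the other values of single genes under alternatives, 368 kept direction and side of the threshold, 12 gained a call and 25 lost one. Without length correction GstS1 took 1.76% of the 21 rows in knockdown guts and 4.80% in WT guts. The cause was not tested where a value moved, except that a left-out library means fewer samples.

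With 3 libraries in each group, an exact permutation test of a single value cannot go below p = 0.1, so the class shares were not tested. Which library was made on which platform is not stated, so platform entered no fit.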
